A study of Homo sapiens with 8 samples.

Results

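The 10 genes described here are 7 Eph receptors (EPHA2, EPHA3, EPHA4, EPHA7, EPHB2, EPHB3 and EPHB4) and the 3 B-type ephrins (EFNB1, EFNB2 and EFNB3), followed across A673/TR/shFEZF1 cells. They were set by a list of names that was drawn up with earlier results of these data known, and are 10 of the 34792 genes to which the deposited transcripts could be summed. The A673 line was established from an Ewing sarcoma and expresses the fusion EWSR1-FLI1. All cultures derive from a single A673 clone that expresses the tetracycline repressor (TR), and all carry a doxycycline-inducible short hairpin RNA against FEZF1, a transcription factor of neural development. RNA of 4 origins was sequenced, namely the polyclonal population, clone 3, clone 5 and clone 6, each without treatment (control, 4 cultures) and with doxycycline at 1 µg/mL for 72 h (4 cultures), so that the 8 libraries form 4 pairs by origin; the clones had been kept because the hairpin worked well in them. No culture without the hairpin was given doxycycline, so effects of the drug and of the knockdown cannot be told apart. All 4 origins trace back to 1 cell line and each condition of an origin is a single library. Where doxycycline is tested with the cultures paired by origin, the p-values measure how the differences within these 4 pairs vary. Without the pairing they measure the spread between these cultures.

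Eph receptors are receptor tyrosine kinases, and ephrins are their membrane-bound ligands, so signalling takes place where cells touch and can run in both directions: forward into the cell that carries the receptor and in reverse into the cell that carries the ephrin. A-type receptors mostly bind A-type ephrins, which are attached to the membrane by a lipid anchor, and B-type receptors mostly bind B-type ephrins, which span the membrane; EPHA4 binds ligands of both types. The family is known for axon guidance, for the sorting of cells into separate compartments and for the distinction of arteries from veins.

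Library depth lay between 26719886 and 42422421 assigned reads, and 89.9% to 91.1% of these reads fell on transcripts with a gene symbol. The control library of clone 5 was deposited with its transcripts in another order and with more decimals than the other 7; whether it was quantified in a run of its own is not given in the sources used here, and values without clone 5 are given beside the calls. FEZF1 was lower with doxycycline in 4 of 4 pairs (log2 fold change -0.81 ± 0.0726 SE, adjusted p = 0.00594 in edgeR with origin as a block, 0.29 without it; -0.82 and 0.0285 without clone 5). Ewing sarcoma markers were present, with 7 of 7 at 1 TPM (a length-corrected level) or more in at least 1 library and a summed level of 3016 to 5277 TPM in the control and 3040 to 5391 TPM in the doxycycline cultures. Of these 7, NR0B1 and NKX2-2 were called higher and LIPI lower with doxycycline in edgeR with the block, and their part in the results below was not tested. Of the 3 endothelial markers, PECAM1 and VWF were under 1 TPM in every library, and CDH5 was listed at 0 but 0% of its reads were matched to a symbol. The endothelial sum was 0.0894 to 0.134 TPM in the control and 0.108 to 0.361 TPM in the doxycycline cultures, and PECAM1, the marker of this list that could be tested, had a log2 fold change of 0.89 ± 0.288 SE (adjusted p = 0.107 in edgeR with the block) and groups that did not overlap. Of 3 epithelial markers, 2 were under 1 TPM in every library, and the sum was 0.11 to 2.15 TPM in the control and 0.687 to 3.51 TPM in the doxycycline cultures, mostly EPCAM (log2 fold change 1.90 ± 0.467 SE, adjusted p = 0.0501 in edgeR with the block), which was higher in 4 of 4 pairs. The part of these markers in the members' differences was not tested. Of 3 blood markers, 2 were under 1 TPM in every library, with a sum of 4.09 to 11.5 TPM in the control and 5.06 to 12.2 TPM in the doxycycline cultures. The exception among the blood markers was CD68, at a mean of 6.13 TPM in the control and 7.10 TPM in the doxycycline cultures.

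Which receptors and ligands these cells express was read from TPM, transcript abundance scaled to the same total in each library, the only scale used here to set one gene against another. The ligand EFNB1 was the most abundant member, at 105 ± 12.6 TPM (mean ± SD, n = 4 control cultures). The receptors EPHB4 and EPHA2 followed at 70.9 ± 6.59 and 70.4 ± 23.9 TPM, and EPHA3 came next at 28.0 ± 3.0 TPM. EPHB4 is the preferred receptor of ephrin-B2 and marks veins, EPHA2 is a receptor common in epithelia and in many tumours, and EPHA3 is a receptor of embryonic mesenchyme and retina. The third B-type ephrin, EFNB3, a midline barrier to growing axons in the spinal cord, stood at 22.9 ± 4.82 TPM. EPHA4, EPHB3 and EPHA7 formed a middle group at 12.6 ± 1.38, 10.9 ± 3.27 and 7.80 ± 1.31 TPM. EFNB2 and EPHB2 were the least abundant members at 1.42 ± 0.812 and 1.35 ± 0.459 TPM.

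Not all neighbours in this order could be told apart. The ranges of the 4 control cultures overlapped for EPHB4 and EPHA2, for EPHA3 and EFNB3, for EPHA4 and EPHB3, for EPHB3 and EPHA7, and for EFNB2 and EPHB2. They did not overlap between EFNB1 and EPHB4, between EPHA2 and EPHA3, between EFNB3 and EPHA4, or between EPHA7 and EFNB2. With curated transcripts alone, without those predicted by RefSeq, EPHB4 was at 31.2 TPM, below EPHA2 at 69.8 TPM, and EPHB2 was at 0.118 TPM. The symbols accounted for 76.7% of the reads of EPHA3 and 83.3% of those of EPHB2, judged against the mean normalized count of each gene in the deposited gene table, and for 97.1% to 99.4% for the other 8 members, so the levels of EPHA3 and EPHB2 are low estimates.

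EPHA2, EPHB4 and EPHA3 together held 80.6% to 84.8% of the TPM of all 14 Eph receptors in the control cultures and 77.3% to 83.7% in the doxycycline cultures. Among the ephrins, the B-type ligands held 73.8% to 80.2% of the TPM in the control cultures, and EFNB1 alone held 78.1% to 84.8% of the B-type total. A673/TR/shFEZF1 cells thus had both receptors and ligands of the B type in the same cultures; whether they were in the same cells cannot be read from bulk RNA. In bulk samples a smaller number of cells with a transcript and less of it per cell cannot be told apart either.

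Of the 12 other members of the family, 2 A-type ephrins stood above the rest. EFNA4 stood at 22.8 ± 2.13 TPM in the control cultures and EFNA3 at 9.80 ± 2.33 TPM, whereas EFNA2 (2.47 TPM), EFNA1 (1.61 TPM), EFNA5 (1.59 TPM) and the receptor EPHA5 (2.01 TPM) were near the level of EFNB2. EPHA1 and EPHA6 were at 0.427 and 0.122 TPM. EPHA8, EPHA10, EPHB1 and EPHB6 were under 0.1 TPM on average in the control cultures and were too low to test. The symbols accounted for 38.6% of the reads of EPHB1, 66.2% of EPHA1, 80.6% of EFNA5 and 90.7% of EPHA6, so these levels are low estimates.

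Doxycycline was then compared with control within each origin. Differences were tested on counts with edgeR's quasi-likelihood test, with origin as a block, and the Benjamini-Hochberg adjustment covered 15993 genes. Values per library are given as CPM, counts scaled to library size by TMM, which serve for the same gene across libraries and not for one gene against another. EPHB3 and EFNB2 were higher with doxycycline and EPHA4 was lower, so 3 of the 10 members passed an adjusted p of 0.05, beside 7.63% of all genes tested (3.73% higher, 3.91% lower). Without the block, 0 of 10 members passed in edgeR, where 0.00625% of all genes did. In DESeq2 without the block 0 of 10 passed, where 231 of the 15993 genes that entered the fit did. At an unadjusted p under 0.05, 4 of 10 members passed in edgeR without the block, beside 7.22% of all genes. With the block, 10 of 10 members had an unadjusted p under 0.05, beside 24.8% of all genes. DESeq2 with the block called 5 of 10, EPHA3 and EPHA7 in addition, beside 14.9% of the 12892 genes to which it gave an adjusted p. On simulated data the fits with the block made more false calls than their threshold allows, so calls close to it are less firm than their adjusted p states.

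The direction was the same in 4 of 4 pairs for 9 of the 10 members, beside 33.3% of all genes, and EFNB1 was the exception. The CPM of the 4 control and the 4 doxycycline cultures did not overlap for 1 member, EPHA3, beside 4.94% of all genes. The median log2 fold change was -0.22 over the members and 0.0042 over all genes, with 3 members above 0 and 7 below.

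EPHB3, a B-type receptor that guides axons and keeps cell populations apart in the intestinal crypt, was at 28.5 CPM in the polyclonal population, 36.7 in clone 3, 25.5 in clone 5 and 18.0 in clone 6 without treatment. With doxycycline it was at 53.8, 67.5, 59.6 and 28.4 CPM, respectively. Each culture rose above its own control, but clone 6 with doxycycline stayed below the controls of the polyclonal population and clone 3, so the groups overlapped. The ratios were 1.89, 1.84, 2.34 and 1.58, and the fitted change was 1.90-fold (log2 0.92 ± 0.0935 SE, adjusted p = 0.00594 in edgeR with the block, 0.405 without it). The call was kept when the cultures of each origin were left out in turn, and without clone 5, the origin with the largest ratio, the log2 fold change was 0.81 (adjusted p = 0.0285). On the TPM scale EPHB3 moved from position 7 to position 5 among the members by mean. Its doxycycline range, 10.5 to 28.0 TPM, overlapped those of EPHA3 (19.5 to 25.6) and EFNB3 (11.8 to 25.8). Position 5 thus could not be told apart from its neighbours. The ratio of EPHB4 to EPHB3 was 5.25 to 9.99 in the control and 3.15 to 6.59 in the doxycycline cultures, lower with doxycycline in every pair.

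EFNB2, the ephrin of arteries and the preferred partner of EPHB4, had the largest log2 fold change of the members. It was at 4.20 CPM in the polyclonal population, 7.43 in clone 3, 2.50 in clone 5 and 2.53 in clone 6 without treatment, and at 6.82, 19.5, 11.1 and 6.81 CPM with doxycycline. Again every pair rose, by ratios of 1.62, 2.63, 4.44 and 2.69, while the control of clone 3 lay above the doxycycline cultures of the polyclonal population and clone 6. The fitted change was 2.64-fold (log2 1.40 ± 0.22 SE, adjusted p = 0.0154 in edgeR with the block, 0.487 without it). The depth behind it was modest, 63 to 236 reads in the control and 162 to 672 in the doxycycline cultures. The adjusted p was 0.0538 without clone 3, 0.0510 without clone 5, which had the largest ratio (log2 fold change 1.15 without it), and 0.0612 without clone 6. EFNB2 stayed the minor B-type ephrin: EFNB1 exceeded it 47.9 to 115 times in TPM in the control and 15.3 to 46.3 times in the doxycycline cultures.

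EPHA4, a receptor of both ephrin types with a role in guiding corticospinal axons, was at 51.1, 41.5, 49.3 and 51.0 CPM in the controls of the polyclonal population and clones 3, 5 and 6. With doxycycline it was at 36.7, 30.5, 43.1 and 31.3 CPM. Every pair fell, and the groups met at clone 5 with doxycycline, which was above the control of clone 3. The fitted change was 1.37-fold lower (log2 -0.45 ± 0.0869 SE, adjusted p = 0.0255 in edgeR with the block, 0.45 without it). The adjusted p was 0.0737 without the polyclonal population, 0.0681 without clone 3, 0.0817 without clone 6, 0.0434 without clone 5 and 0.0572 with curated transcripts alone.

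**Figure D1:**
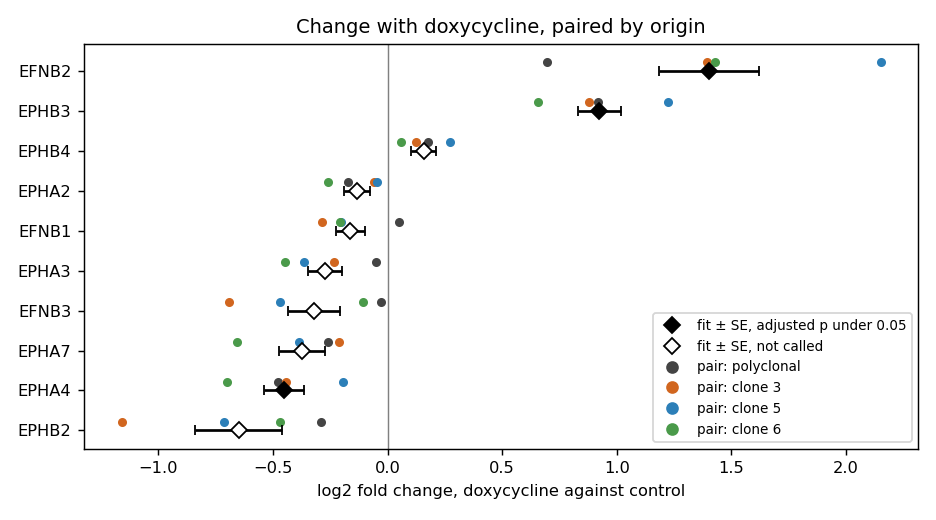
Log2 fold change of each member with doxycycline against control. Diamonds with bars are the fit with origin as a block ± SE, filled where the adjusted p was under 0.05, and the dots above them are the 4 pairs. EFNB2 at 1.40 and EPHB3 at 0.92 lie to the right of 0 and EPHA4 at -0.45 to the left; EFNB1 is the member with a pair on either side.

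The 250 bases before the RefSeq start of these 3 genes (GRCh38.p14, each on the strand of its gene, 5′ to 3′) are shown because they lie in front of the members that passed the test, with each CpG in capitals.
EPHB3, chr3:184561535-184561784, plus strand: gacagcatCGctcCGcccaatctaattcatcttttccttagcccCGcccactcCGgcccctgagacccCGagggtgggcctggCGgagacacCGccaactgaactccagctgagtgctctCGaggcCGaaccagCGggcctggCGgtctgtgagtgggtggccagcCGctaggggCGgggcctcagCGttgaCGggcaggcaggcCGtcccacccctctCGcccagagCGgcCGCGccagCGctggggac
EFNB2, chr13:106535663-106535912, minus strand: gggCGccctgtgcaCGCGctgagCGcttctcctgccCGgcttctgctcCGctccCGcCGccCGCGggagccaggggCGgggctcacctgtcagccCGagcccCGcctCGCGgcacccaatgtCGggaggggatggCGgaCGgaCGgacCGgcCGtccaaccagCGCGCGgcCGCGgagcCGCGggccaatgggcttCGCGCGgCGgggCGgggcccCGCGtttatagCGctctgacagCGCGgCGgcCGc
EPHA4, chr2:221574203-221574452, minus strand: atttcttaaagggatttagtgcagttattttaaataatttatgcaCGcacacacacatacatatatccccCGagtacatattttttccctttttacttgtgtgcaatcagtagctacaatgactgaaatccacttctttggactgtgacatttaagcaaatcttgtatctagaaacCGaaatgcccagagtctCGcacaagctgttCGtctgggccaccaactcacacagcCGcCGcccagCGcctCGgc
The windows of EFNB2 and EPHB3 had 40 and 21 CpG and a G+C content of 78.4% and 70.0%. The median was 11 CpG and 58% G+C over 35116 windows of the same length. EPHA4 had 9 CpG and 43.2% G+C. High CpG was not particular to the members called higher. Among members that were not called, EPHB2 had 42 CpG and EPHB4 had 29, while EPHA2, EPHA3, EPHA7 and EFNB1 had 15 to 19. EWSR1-FLI1 is known to bind repeats of GGAA, so GGAAGGAA was searched on both strands: it was in 0 of the 9 members with a window in the table and in 3.06% of all windows. No window was at hand for EFNB3. This describes the letters of these windows and nothing about binding elsewhere.

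The genes themselves lie at chr3:184561785-184582408 (EPHB3), chr13:106489745-106535662 (EFNB2) and chr2:221418027-221574202 (EPHA4) in the same build. The other members lie at chr1:16124337-16156069 (EPHA2), chr3:89107621-89482134 (EPHA3), chr6:93240020-93419559 (EPHA7), chr1:22710838-22921500 (EPHB2), chr7:100802565-100827523 (EPHB4), chrX:68829021-68842160 (EFNB1) and chr17:7705202-7711372 (EFNB3).

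The remaining A-type receptors among the members had lower values with doxycycline but did not pass the test. EPHA3 was at 84.7, 96.7, 85.4 and 112.6 CPM in the controls of the polyclonal population and clones 3, 5 and 6, and at 81.8, 82.3, 66.4 and 82.7 CPM with doxycycline. Its highest doxycycline culture was below its lowest control, although the polyclonal pair differed by a ratio of 0.966. The log2 fold change was -0.27 ± 0.0739 SE (adjusted p = 0.0655 in edgeR with the block, 0.683 without it), and with curated transcripts alone it was -0.44 (adjusted p = 0.152). EPHA7 was at 14.7, 21.6, 16.6 and 19.3 CPM without and 12.3, 18.6, 12.7 and 12.2 CPM with doxycycline, with ratios from 0.635 to 0.863. The groups overlapped because clone 3 with doxycycline was above the controls of the polyclonal population and clone 5. Its log2 fold change was -0.37 ± 0.0999 SE (adjusted p = 0.0626 in edgeR with the block, 0.77 without it), and with an offset for the effective length of its transcripts in each library it was -0.19 (adjusted p = 0.227).

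EPHA2, whose signalling in tumour cells can also run without a ligand, had small differences. It was at 136.8, 245, 144.9 and 125.5 CPM in the controls and at 121.6, 235, 140.4 and 104.7 CPM with doxycycline, again in the order polyclonal population, clones 3, 5 and 6. Clone 3 had the highest value in both conditions, and the 4 ratios lay between 0.834 and 0.969. The log2 fold change was -0.13 ± 0.0566 SE (adjusted p = 0.195 in edgeR with the block, 0.999 without it).

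The other B-type receptors among the members went in opposite directions without passing the test. EPHB2, an axon guidance receptor that shares its role in the intestinal crypt with EPHB3, was at 5.80, 4.54, 2.72 and 4.43 CPM in the controls and at 4.74, 2.03, 1.66 and 3.20 CPM with doxycycline. The ratios ran from 0.448 in clone 3 to 0.817 in the polyclonal population, and the log2 fold change was -0.65 ± 0.19 SE (adjusted p = 0.0807 in edgeR with the block, 0.867 without it). With curated transcripts alone the log2 fold change was -1.14 (adjusted p = 0.104). Over all transcripts EPHB2 had 75 to 229 reads in the control and 50 to 154 in the doxycycline cultures. The curated value rests on far fewer. NM_017449.4 had 12.3 to 36.4 reads in the control and 0 to 18.8 in the doxycycline cultures. NM_001309193.2 had 0 in the control and 0 to 10.1 in the doxycycline cultures, and the other curated transcripts had 0. EPHB4 was at 175, 189, 157 and 176 CPM in the controls and at 198, 207, 189.8 and 184 CPM with doxycycline. All 4 ratios were above 1, from 1.04 to 1.21, and the log2 fold change was 0.16 ± 0.0544 SE (adjusted p = 0.122 in edgeR with the block, 0.83 without it). It was 0.048 with curated transcripts alone (adjusted p = 0.812) and 0.10 without clone 5 (adjusted p = 0.477).

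Of the ligands, EFNB1, whose mutation causes craniofrontonasal syndrome, was at 194, 238, 189 and 194 CPM in the controls and at 201, 195, 164 and 168 CPM with doxycycline. It was higher with doxycycline in the polyclonal population and lower in the 3 clones, with a log2 fold change of -0.16 ± 0.0652 SE (adjusted p = 0.177 in edgeR with the block, 0.891 without it). EFNB3 was at 46.9, 43.1, 31.0 and 50.9 CPM in the controls and at 46.0, 26.7, 22.4 and 47.3 CPM with doxycycline. Clones 3 and 5 had the lower ratios, 0.62 and 0.723, against 0.98 in the polyclonal population and 0.928 in clone 6, and the log2 fold change was -0.32 ± 0.114 SE (adjusted p = 0.134 in edgeR with the block, 0.968 without it), or -0.20 without clone 3 (adjusted p = 0.302).

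Over the whole family, the share of A-type receptors in the receptor TPM was lower with doxycycline in every pair. It was 55.9%, 62.6%, 60.2% and 57.8% in the controls of the polyclonal population and clones 3, 5 and 6, and 47.3%, 56.1%, 50.2% and 49.3% with doxycycline. The share of B-type ligands in the ephrin TPM was 75.3%, 80.2%, 73.8% and 78.8% in the controls and 73.8%, 75.5%, 68.2% and 71.6% with doxycycline. A-type receptors and B-type ligands thus both made up a smaller part of their class, while the receptor total was higher with doxycycline in 3 of 4 pairs and lower in clone 6. These shares are given as a description, since the members contribute unequally to them. EPHB4 made up most of the B-type receptor TPM. Its control mean was 70.9 TPM over all transcripts and 31.2 TPM with curated transcripts alone, for which the shares were not computed.

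**Figure D2:**
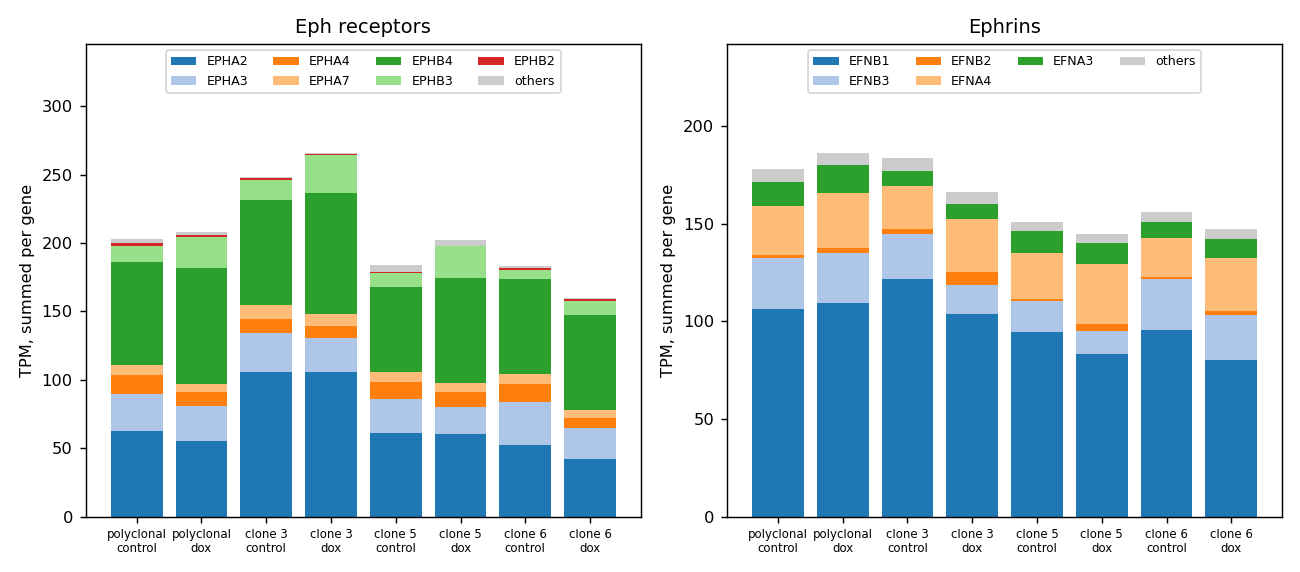
Stacked TPM of the Eph receptors (left) and the ephrins (right) in each of the 8 libraries, with the less abundant family members added up as others. EPHA2 and EPHB4 make up most of the receptor bar and EFNB1 most of the ephrin bar, and EPHB3 widens with doxycycline in each origin.

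Among the 12 other family members, 8 could be tested and 1 was called, beside 7.63% of all genes. This was EPHA5, an A-type receptor of the developing brain. It was at 7.13, 1.78, 16.6 and 3.05 CPM in the controls of the polyclonal population and clones 3, 5 and 6 and at 4.26, 1.34, 10.8 and 1.19 CPM with doxycycline, a log2 fold change of -0.76 ± 0.179 SE (adjusted p = 0.0449 in edgeR with the block, 0.997 without it). It also differed between origins (adjusted p = 0.000513 in edgeR), and its call with doxycycline was lost without any one of the 4 origins, at an adjusted p of 0.112 without the polyclonal population and 0.0622, 0.158 and 0.107 without clones 3, 5 and 6. EFNA4, an A-type ligand, was at 15.7, 14.9, 16.2 and 13.9 CPM without and 17.9, 17.3, 20.5 and 19.4 CPM with doxycycline. Its groups did not overlap, but the adjusted p was 0.0765 in edgeR with the block and 0.635 without it (log2 fold change 0.30 ± 0.0866 SE).

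The libraries also differed by origin. In this comparison the control and the doxycycline culture of an origin stood as its replicates. Anything else that a pair shared cannot be told apart from origin. A test of the 3 origin terms in the same fit called 6 of the 10 members (EPHA2, EPHA7, EPHB2, EPHB3, EFNB2 and EFNB3), beside 39.4% of all genes. EPHA2 had the smallest adjusted p, at 0.000433, with means over both cultures of 129 CPM in the polyclonal population, 240.3 in clone 3, 143 in clone 5 and 115 in clone 6. Clone 3 was the highest, and without it the adjusted p was 0.0516. EPHB3 (adjusted p = 0.00389 in edgeR) was lowest in clone 6, at a mean of 23.2 CPM against 41.1 to 52.1 in the others, and without clone 6 the adjusted p was 0.0892. EFNB3 (adjusted p = 0.0131 in edgeR) was lowest in clone 5, at 26.7 CPM against 34.9 to 49.1, and without clone 5 the adjusted p was 0.089.

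EFNB2 (adjusted p = 0.0186 in edgeR) was highest in clone 3, at a mean of 13.5 CPM against 4.67 to 6.81. Without clone 3 the adjusted p was 0.518, and without clone 6 it was 0.0572. EPHB2 (adjusted p = 0.0295 in edgeR) was highest in the polyclonal population at 5.27 CPM and lowest in clone 5 at 2.19 CPM. Its call was lost without the polyclonal population (0.116) or clone 5 (0.141). EPHA7 (adjusted p = 0.042 in edgeR) was highest in clone 3 at 20.1 CPM, and its call was lost without clone 3 (0.501), the polyclonal population (0.0819) or clone 5 (0.0614). Of these 6 members, clone 3 thus had the highest mean of EPHA2, EPHA7, EPHB3 and EFNB2. EPHA3, EPHA4, EPHB4 and EFNB1 did not pass the test of origin, with adjusted p-values of 0.0915, 0.121, 0.212 and 0.0909.

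The transcripts that carried these reads differed in kind. EPHB3, EFNB1 and EFNB3 were each counted on 1 transcript. EPHB4 was split between the curated NM_004444.5 (35.8% to 52.2% of its reads) and the predicted XM_017011816.1 (47.8% to 64.2%). EPHB2 was mostly counted on 2 predicted transcripts, XM_006710441.4 and XM_006710442.4, of which the first took 0% to 90.4% and the second 0% to 87.8% of its reads. The split changed between the 2 cultures of the polyclonal population. EFNB2 was mostly on NM_004093.4, except in the control of clone 6, where it held 28.6% and NM_001372057.1 held 71.4% of few reads. In the control of clone 5, also with few reads, these transcripts held 50.4% and 47.5%.

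EPHA7 is known to have short forms that lack the kinase domain. In the RefSeq set it had 12 transcripts, of which 6 were under 3000 bases and too short for the whole coding sequence. These 6 held 60.2%, 61.6%, 57.3% and 53.9% of the EPHA7 TPM in the controls of the polyclonal population and clones 3, 5 and 6, and 58.7%, 66.2%, 72.5% and 73.4% with doxycycline. The share was higher in 3 of 4 pairs, with a mean of 58.3% ± 3.43 (SD, n = 4) in the control and 67.7% ± 6.76 (SD, n = 4) in the doxycycline cultures. This value was chosen after it had been seen, and the difference did not pass a test (2-sided exact permutation test, p = 0.0857 for 4 against 4 and 0.25 for pairs, where the smallest possible p are 0.0286 and 0.125). Of the reads, rather than the TPM, the short transcripts held 22.8% to 31.6% in the control and 29.9% to 43.2% in the doxycycline cultures. EPHA3, by contrast, had 0.341% to 1.74% of its reads on its transcript of 2587 bases.

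The proteins that pass the signal on inside the cell were counted in the same fit. Among 39 signalling partners of Eph receptors, 35 were tested and 4 were called with the block, 2 higher and 2 lower, against the 7.63% called over all genes. NCK2, an adaptor that links receptors to the actin cytoskeleton, was higher (log2 fold change 0.35 ± 0.0637 SE, adjusted p = 0.0222 in edgeR with the block), and so was CHN1, a Rac GTPase-activating protein known to act downstream of EPHA4 (0.35 ± 0.0812, 0.0433). VAV2, which takes part in the uptake of ephrin-Eph complexes, was lower (-0.40 ± 0.0596, 0.0129), as was CHN2, the relative of CHN1 (-0.33 ± 0.075, 0.0403), for which 72.2% of the reads were accounted for. Both chimaerins were thus called, in opposite directions.

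Of 10 partners of the B-type ephrin tail, 8 were tested and 1 was called, SDCBP, the PDZ protein syntenin (log2 fold change 0.35 ± 0.0663 SE, adjusted p = 0.0244 in edgeR with the block). Of 8 proteins known to cut Eph receptors or ephrins, 7 were tested and 1 was called, NCSTN, the nicastrin subunit of gamma-secretase (log2 fold change -0.28 ± 0.0537 SE, adjusted p = 0.0246). The tail and cleavage lists are too short for 1 call to be set apart from the 7.63% called over all genes. The 6 genes called in these lists had the same direction in 4 of 4 pairs, beside 33.3% of all genes. They were picked by the test on these same pairs, so this adds no support to the calls. Without the block, 0 of the 6 passed in edgeR, at adjusted p-values from 0.339 to 0.929. Of the 6, 3 (NCK2, VAV2 and SDCBP) had an unadjusted p under 0.05 in that fit, beside 7.22% of all genes. Because the 6 were picked on these same libraries, this count adds no support to the calls either. In DESeq2 without the block, NCK2 passed (adjusted p = 0.0463). With 1 origin left out, the signalling partners called were 2 without the polyclonal population, 1 without clone 3, 0 without clone 5 and 0 without clone 6. The tail partners called were 1 without the polyclonal population and 0 without any of the 3 clones, and 0 of the cleavage list were called without any one of the 4 origins. ADAM10 and PTK2 were counted on 12.7% and 12.8% of their reads, so that little can be said of them here.

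The genes whose profile over the 8 libraries came closest to those of EPHB4 and EFNB1 were also listed, by the root mean square difference of log2 CPM after each gene was centred on its mean. EPHB4 was taken as the receptor with the highest mean TPM, although its level could not be told apart from that of EPHA2. For EPHB4, whose profile had an SD of 0.12, these were DCLRE1B (0.0323), CYTH3 (0.0346) and CUL4A (0.0363), out of 15992 other genes. For EFNB1, whose profile had an SD of 0.16, they were LGALS3BP (0.0303), DVL3 (0.0438) and DVL2 (0.0471). DVL2, a dishevelled protein, was also on the list of partners of the B-type ephrin tail, with 92.9, 107.6, 92.8 and 91.9 CPM in the controls and 93.3, 88.4, 78.3 and 83.8 CPM with doxycycline.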

How the data were processed

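RNA of 8 cultures of A673/TR/shFEZF1 cells was sequenced from stranded mRNA libraries. The authors quantified transcripts with Salmon on GRCh38 RefSeq transcripts and deposited, per library, estimated counts and TPM of 158867 transcripts; the strand setting is not given in the sources used here. They also deposited a DESeq2 (2.11.40.6) table of genes, of which only the mean, a signal of normalized counts, was used, to see how many reads the symbols account for; its fold changes and p-values were not used. The control file of clone 5 lists its transcripts in another order and with more decimals than the other 7, and rows were joined by name.

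A gene symbol was matched to 115325 transcripts (72.6%). Estimated counts were summed per symbol to 34792 genes, rounded, filtered with filterByExpr, scaled by TMM and compared by the quasi-likelihood test of edgeR 4.0.16 (R 4.3.3), with Benjamini-Hochberg adjustment at 0.05. Deposited TPM were summed per symbol for levels only. Origin was the block: control and doxycycline cultures of 1 origin come from the same cells, and their deviations from the group means correlated (0.406 for the polyclonal population, 0.546, 0.59 and 0.582 for clones 3, 5 and 6), whereas cultures of different origin lay between -0.395 and 0.179. Alternatives were the fit without the block, DESeq2 1.42.0, its size factors, filters at 10 counts in every library or 1 count in any, effective length as an offset, curated transcripts alone and leaving out each origin. The edgeR fits with and without the block, the test of origin and DESeq2 with the block were tried on simulated data. False calls in the blocked fits exceeded the nominal share there. The other alternatives were not tried on simulated data. Named genes were all members, the rest of the family, called genes of 3 pathway lists (up to 3 per list and direction), FEZF1, and the 3 closest profiles to the receptor and the B-type ephrin of highest mean TPM (EPHB4 and EFNB1). The members, lists and tests were chosen with earlier results of these data known.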

Additional observations from a re-analysis of the deposited data

Results flagged for a closer look

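Each group of 4 cultures was searched for a culture that stood apart from the other 3 by Dixon's criterion, in 22 groups, for the 10 members and FEZF1. Chance flags about 1 in 20 such groups, and 4 were found. EPHA2 in the control culture of clone 3 was at 245 CPM, against 125 to 145 CPM in the other controls. EFNB1 in the same culture was at 238 CPM, against 189 to 194 CPM. EPHA7 in the doxycycline culture of clone 3 was at 18.6 CPM, against 12.2 to 12.7 CPM. EPHA3 in the doxycycline culture of clone 5 was at 66.4 CPM, against 81.8 to 82.7 CPM. Clone 3 supplied 3 of the 4.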

How the results depend on the processing

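The direction of the log2 fold change with doxycycline was kept by the 10 members in 120 of 120 combinations of member and alternative, and the side of the threshold in 101; 13 lost a call and 6 gained one. Without the replicate block the pairing by origin is not used, and edgeR then called 1 gene and 0 members; DESeq2 called 231 genes and 0 members without the block and 1920 genes and 5 members with it. A filter at 10 counts in every library gave 1692 genes, in place of 1221, and 6 members (EPHA3, EPHA4, EPHA7, EPHB2, EPHB3 and EFNB2). The share of all genes called under that filter was not computed. Curated transcripts alone gave 493 genes. Leaving out 1 origin left 175 genes (without clone 5) to 699 genes (without the polyclonal population) and 1 to 2 members; EPHB3 was called in each of these fits and was the only member called without clone 3 or clone 6. The difference between origins was called for 6300 genes, for 4054 with curated transcripts alone and for 2970 to 5300 with 1 origin left out, and for 3 to 4 of the members in place of 6. With 1 origin left out, 6 libraries remain, so fewer calls follow in part from the smaller fit. On simulated data the blocked fits made more false calls than the threshold allows. EFNB2 and EPHB2, with the fewest reads, have the widest errors among the members, and for the 7 members that were not called, a p that misses the threshold does not show that they did not change.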
